A study of Rattus norvegicus with 6 samples.

Results

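Expression of 10 genes of young neurons and growing neurites was followed in cultured rat oligodendrocyte precursor cells (the proliferating source of myelinating oligodendrocytes). The set is a list of gene symbols, and the rule uses no measured value: Dcx, Tubb3, Gap43, Stmn1, Stmn2, Dpysl3, Nefl, Ina, Elavl4 and Snap25. The genes were nonetheless chosen with earlier results of these data known. All 10 were found among the 32662 genes of the table, each in 1 row. All 10 also passed the filter of at least 1 FPKM in at least 3 libraries, which left 10766 genes for testing. FPKM is the number of fragments scaled by gene length and by the total of the library, so levels of different genes can be set side by side.

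The cells came from the cerebral cortex of Sprague-Dawley rats aged 1 to 2 days. They were lifted off mixed glial cultures grown with 20% fetal bovine serum, then grown unattached for 4 to 5 days in 2% B27 with 10 ng/ml each of PDGF and FGF, which keep precursors dividing. The 3 control libraries came from untreated cells and the 3 fibril libraries from cells incubated for 72 hours with preformed fibrils of human alpha-synuclein. No allele or transgene is named for either group, and whether the 3 libraries of each group stem from different cultures or litters is not stated. The p-values therefore measure only the spread between these libraries, which may be technical.

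Most of the genes studied here are used as marks of neurons that have left the cell cycle and are extending axons and dendrites. Stmn1 is an exception, as it is also abundant in dividing cells. Doublecortin, class III beta-tubulin, the stathmins and the collapsin response mediator proteins act on microtubules, GAP-43 works at the growth cone membrane, neurofilament light chain and alpha-internexin build axonal filaments, HuD binds neuronal mRNAs and SNAP-25 drives vesicle fusion. Cells of the oligodendrocyte lineage also carry long processes and are known to contain transcripts of part of this set, Gap43 and Stmn1 among them. The symbols therefore do not by themselves name the cell that made the RNA. In bulk RNA fewer cells of a type and less RNA per cell cannot be told apart.

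Fragment numbers are not known, but the spacing of the low values shows that depth differed. Relative to control replicate 3, the FPKM of a single fragment was 4.92 in control replicate 1, 8.46 in fibril replicate 1 and 1.21 to 2.36 in the other 3 libraries. Mitochondrially encoded genes made up 80.3% and 75.6% of the FPKM total in replicate 1 of the control and fibril group, and 12.0% to 40.1% in the other libraries. Values are shown as deposited. Rescaling to equal totals without mitochondrial genes moved the median log2 difference (fibril minus control) of all genes from -0.04 to -0.30. Values on that second scale are given for part of the results, and differences given on 1 scale only also depend on it. The housekeeping genes Rps6 and Hprt1 stood at 0 throughout, so a 0 can be a failed estimate.

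RefSeq promoter windows on the GRCr8 build (250 bases before to 50 after a transcription start) were at hand for 6 of the 10 genes. Chosen after their values were seen, they are shown for Dcx, whose groups did not overlap, for Elavl4, which was also lower in every replicate number, and for Stmn1, which had the only positive difference. Each runs 5′ to 3′ on the strand of its gene, and capitals mark matches on either strand to CAGCTG or CAGATG (E boxes, bound by proneural factors), GGGCGG (the Sp1 box) or TATAAA. The windows lie at chrX:112304112-112304411 (minus strand), chr5:130367614-130367913 (minus strand) and chr5:151964929-151965228 (plus strand).
Dcx: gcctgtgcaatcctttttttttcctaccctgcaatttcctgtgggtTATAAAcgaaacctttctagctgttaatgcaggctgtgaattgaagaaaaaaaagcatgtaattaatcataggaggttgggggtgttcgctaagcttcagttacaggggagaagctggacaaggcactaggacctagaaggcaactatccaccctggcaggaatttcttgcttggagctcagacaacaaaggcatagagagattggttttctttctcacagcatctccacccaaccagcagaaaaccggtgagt
Elavl4: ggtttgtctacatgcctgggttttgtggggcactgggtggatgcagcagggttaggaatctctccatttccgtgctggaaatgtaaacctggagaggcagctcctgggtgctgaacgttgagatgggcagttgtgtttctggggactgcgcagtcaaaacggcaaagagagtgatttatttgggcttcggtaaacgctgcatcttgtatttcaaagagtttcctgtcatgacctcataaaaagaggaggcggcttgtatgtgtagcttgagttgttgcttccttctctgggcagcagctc
Stmn1: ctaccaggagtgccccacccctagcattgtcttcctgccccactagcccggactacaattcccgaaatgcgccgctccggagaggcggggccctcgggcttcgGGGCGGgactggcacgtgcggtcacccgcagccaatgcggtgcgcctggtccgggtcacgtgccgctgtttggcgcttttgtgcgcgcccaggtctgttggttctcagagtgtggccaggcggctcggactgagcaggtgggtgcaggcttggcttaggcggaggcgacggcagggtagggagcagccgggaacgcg

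The Dcx window is the poorest in G and C (45%) and holds 3 CG steps, the Elavl4 window has 50% and 7, and the Stmn1 window has 68.3% and 28. The median of 33465 rat promoter windows was 51.7% with 7 CG steps. TATAAA occurs 204 bases before the Dcx start, a motif held by 14.2% of all windows. GGGCGG occurs 147 bases before the Stmn1 start and in the Tubb3, Ina and both Dpysl3 windows, against 33.1% of all windows. CAGCTG was found in Ina and in 1 of the Dpysl3 windows (15.1% of all windows) and CAGATG in none of the windows of the set (16.6%). CATCTG is CAGATG read on the other strand, matches of different motifs did not overlap, and 2 of the GGGCGG matches of a Dpysl3 window overlap each other. A match is a description of the sequence only.

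In untreated cultures the 10 genes covered a wide range of levels, and the most abundant stood among the top transcripts of the cells. Gap43 had 282.8 ± 46.2 FPKM and Stmn1 243.9 ± 142.9 FPKM (SD, n = 3 control libraries). Dpysl3 (74.0 ± 28.6 FPKM), Dcx (71.5 ± 21.0 FPKM) and Ina (64.7 ± 24.2 FPKM) formed a middle tier whose order lay within the spread between libraries. Tubb3 (19.8 ± 8.86 FPKM), Snap25 (12.6 ± 3.60 FPKM) and Elavl4 (11.2 ± 4.75 FPKM) came next, again not separated from one another. Stmn2 (4.22 ± 0.552 FPKM) and Nefl (3.30 ± 1.14 FPKM) were lowest and did not differ beyond their spread. For scale, the lineage transcription factor Olig2 had 425.6 ± 270.4 FPKM in the same libraries. Ranked among all tested genes of its library, Gap43 lay at percentiles 97.9, 98.4 and 98.4, and Nefl at 31.9, 9.68 and 23.1.

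**Figure D1:**
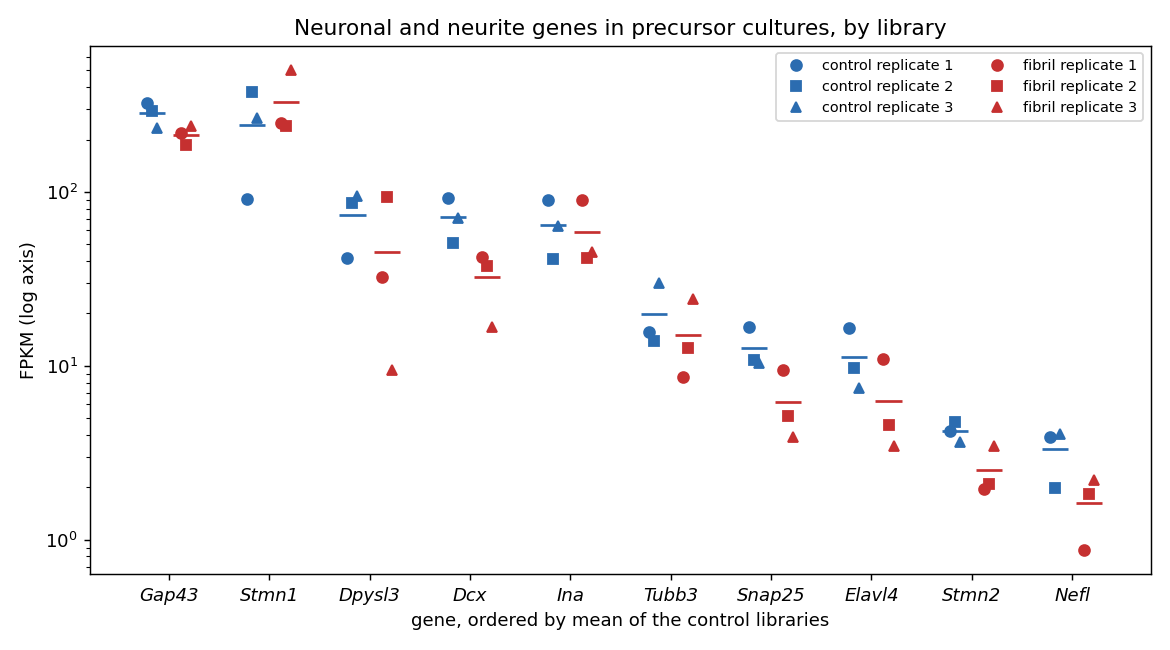
FPKM on a log axis of the 10 genes in each library (control in blue, fibril in red, 1 marker shape per replicate number), with a short line at each group mean. The genes span from 282.8 FPKM (Gap43) to 3.30 FPKM (Nefl) in the control means, and the red points lie wholly below the blue ones for Dcx, Snap25 and Stmn2.

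The comparison asked how exposure to alpha-synuclein fibrils changed these transcripts. Of the 10 genes, 9 were lower on average with fibrils and Stmn1 was higher, but none passed the test over all genes. The median log2 difference of the 10 was -0.65, against -0.04 over all 10766 genes, of which 53.0% were negative. By limma without a block, 0 of the 10 had an adjusted p under 0.05, as for all genes together (0% called, with 433 at an unadjusted p under 0.05), and the smallest adjusted p of the set was 0.96. With the replicate number as a block, 0 of the 10 were called and the smallest adjusted p was 0.426, where 0.111% of all genes (12 genes, all higher) were called. Of the 10, 3 had all fibril libraries below all controls, where 5.30% of all genes did. In all, 6 were lower in each replicate number (Dcx, Tubb3, Stmn2, Nefl, Elavl4 and Snap25), where 19.3% of all genes were. As the genes were chosen with earlier results of these data known, these shares describe the set and do not test it.

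Dcx encodes a protein that bundles microtubules in migrating neurons. It had 92.7, 50.6 and 71.2 FPKM in control replicates 1, 2 and 3, and 42.4, 37.7 and 16.7 FPKM with fibrils. Every fibril library lay below every control, and fibril replicate 3 was the lowest. The control mean was 2.21 times the fibril mean and the log2 difference was -1.18 (SE 0.48, unadjusted p = 0.0351, adjusted p = 0.96 by limma). It was the only gene of the set with an unadjusted p under 0.05 and a lower value, which 1.81% of all genes had. An exact permutation test gave p = 0.1, the smallest that 3 against 3 libraries allow. With the block the SE was 0.37 and the limma adjusted p 0.426. Without fibril replicate 3 the difference was -0.78. Dcx lies on chromosome X (115098674 to 115175299 in the deposited table, whose build is not given in the sources used here). Its percentile rank among tested genes, which scaling a whole library cannot move, was 92.5, 89.2 and 93.0 in the controls and 84.2, 85.1 and 65.3 with fibrils.

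Tubb3, the beta-tubulin isotype used as a general neuron marker, had 15.6, 13.8 and 30.0 FPKM in the controls and 8.60, 12.6 and 24.1 FPKM with fibrils (chromosome 19, 56220754 to 56229813). Replicate 3 was highest in both groups and the groups overlapped, while each fibril library was below the control of its own number. The log2 difference was -0.41 (SE 0.49), and the differences within replicates 1, 2 and 3 were -0.79, -0.13 and -0.30. It was -0.08 without control replicate 3 and -0.09 without fibril replicate 1, and -0.79 without fibril replicate 3.

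The stathmins, which bind tubulin dimers and promote microtubule disassembly, differed widely in level. Stmn1, the ubiquitous form that is abundant in dividing cells, had 90.5, 373.4 and 267.8 FPKM in the controls and 247.7, 240.0 and 502.8 FPKM with fibrils (chromosome 5, 152680406 to 152686806). Control replicate 1 was lowest and fibril replicate 3 highest, and the other 4 ran from 240.0 to 373.4 FPKM. Its log2 difference of 0.57 (SE 0.64) became -0.03 without control replicate 1 and 0.14 over replicates 2 and 3 of both groups. Stmn1 also moved to 0.26 when scaled without mitochondrial genes and to 0.10 under quantile normalization. Stmn2, the membrane-anchored form of growing and regenerating axons, had 4.24, 4.77 and 3.66 FPKM against 1.95, 2.10 and 3.44 FPKM (chromosome 2, 95424250 to 95472115). The groups did not overlap, though fibril replicate 3 came close to the lowest control. The log2 difference was -0.60 (SE 0.37, adjusted p = 0.96 by limma), and within replicates it was -0.83, -0.89 and -0.07.

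Dpysl3, a collapsin response mediator protein that links guidance signals to the cytoskeleton, had 41.4, 86.4 and 94.4 FPKM in the controls and 32.4, 92.9 and 9.41 FPKM with fibrils (chromosome 18, 37716142 to 37819097). A single library, fibril replicate 3, stood far below the rest. The log2 difference of -1.14 (SE 0.75) became -0.34 without that library and -1.92 without fibril replicate 2, and the difference within replicate 2 was 0.10.

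Gap43, the growth cone protein that marks axon growth, was high in every library. It had 323.0, 293.0 and 232.4 FPKM in the controls and 217.0, 185.8 and 238.4 FPKM with fibrils (chromosome 11, 58624197 to 58717914). The groups overlapped only because fibril replicate 3 slightly exceeded control replicate 3. The log2 difference was -0.40 (SE 0.44), and -0.71 after scaling without mitochondrial genes, on which scale the groups did not overlap. Its percentile rank also separated the groups, with 97.9, 98.4 and 98.4 in the controls and 96.5, 97.5 and 96.6 with fibrils. Gap43 and Dcx were the only 2 of the 10 whose ranks did so, against 4.44% of all genes.

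The intermediate filament genes stood at very different levels. Nefl, the light chain on which neurofilaments are built, had 3.87, 1.98 and 4.05 FPKM in the controls and 0.869, 1.83 and 2.19 FPKM with fibrils (chromosome 15, 44799333 to 44804574). Control replicate 2 and fibril replicate 3 overlapped, and each fibril library was below its own control number. Its log2 difference was -0.71 (SE 0.41), and the lowest value came from the library in which 1 fragment was worth the most. Ina, alpha-internexin of early axons, had 89.4, 41.0 and 63.8 FPKM against 89.9, 41.8 and 44.9 FPKM. Replicates 1 and 2 were nearly equal between groups, so the values followed the replicate number more than the treatment. The log2 difference was -0.15 (SE 0.48), and -0.46 after scaling without mitochondrial genes. The locus given for Ina (chromosome 1, 266659518 to 266794431) is the same as that of its neighbour Nt5c2 and of 2 further rows, so its bounds are not those of Ina alone. The loci given for Gap43 and Stmn1 also each stand on 2 rows, so their bounds may be shared too.

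Elavl4 encodes HuD, an RNA-binding protein that stabilizes neuronal mRNAs. It had 16.5, 9.65 and 7.44 FPKM in the controls and 10.9, 4.59 and 3.46 FPKM with fibrils (chromosome 5, 130001371 to 130085838). Replicate 1 was highest in both groups, which made the groups overlap, while the differences within replicates were alike at -0.56, -0.93 and -0.92. The log2 difference was -0.80 (SE 0.50), with an SE of 0.30 and a limma adjusted p of 0.489 under the block. It was -0.51 without control replicate 1 or without fibril replicate 3, and -1.22 without fibril replicate 1.

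Snap25, the plasma membrane SNARE protein of neurotransmitter release, was lower by similar amounts in each replicate number. It had 16.8, 10.8 and 10.4 FPKM in the controls and 9.47, 5.14 and 3.87 FPKM with fibrils (chromosome 3, 129599352 to 129788400). No fibril library reached any control. The control mean was 2.05 times the fibril mean, the log2 difference was -0.98 (SE 0.43, adjusted p = 0.96 by limma) and the differences within replicates were -0.77, -0.94 and -1.22. With the block the SE was 0.30 and the limma adjusted p 0.426. An exact permutation test again gave the smallest possible p of 0.1.

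**Figure D2:**
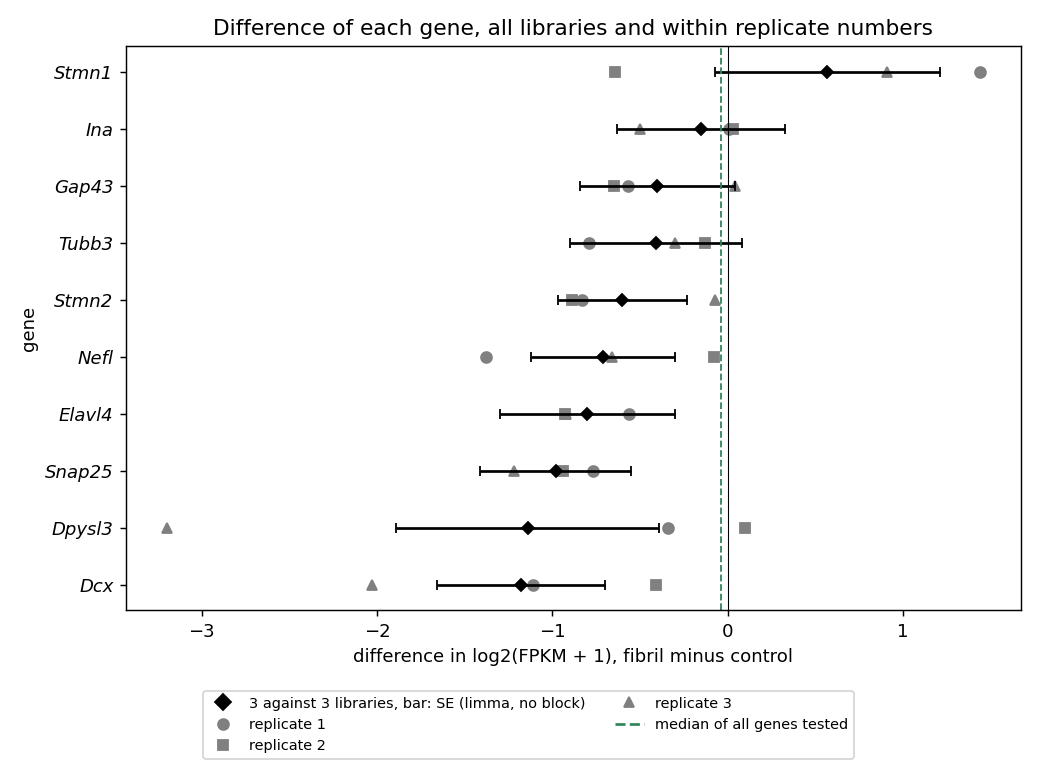
Difference in log2(FPKM + 1), fibril minus control, of the 10 genes: black diamonds with SE bars are 3 against 3 libraries, grey markers the differences within each replicate number, and the dashed line the median of all genes (-0.04). Dcx is lowest at -1.18, Snap25 has its grey markers close together (-0.77, -0.94 and -1.22), and Dpysl3 has 1 far outlying marker at -3.20.

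The set as a whole made up 0.159%, 0.271% and 0.276% of the FPKM not from mitochondrial genes in control replicates 1, 2 and 3, and 0.142%, 0.185% and 0.172% with fibrils. Replicate 1 was low in both groups, so the groups overlapped, but each fibril library was below its own control number. The deposited FPKM of the 10 genes summed to 694.1, 885.4 and 785.1 in the controls and 661.2, 624.6 and 849.3 with fibrils, so on that scale replicate 3 was higher with fibrils. Within replicates 1, 2 and 3 the median log2 difference of the 10 genes was -0.67, -0.52 and -0.58, with 8 of 10 lower each time, against all-gene medians of 0.00, -0.04 and -0.05. Scaling to equal totals without mitochondrial genes moved the median of all genes to -0.30. On that scale the set had a median of -0.87, or -0.57 relative to all genes, again with 9 of 10 lower. Of the 10, 6 then had non-overlapping groups (Dcx, Gap43, Stmn2, Nefl, Elavl4 and Snap25), where 7.03% of all genes did. The split of all genes also moved, from 53.0% to 72.3% lower. Among the lists described below, the medians on that scale were -0.92 for neurite growth and guidance and -0.62 for mature neuron and synapse markers. They were -0.94 for precursor markers, -1.36 for astrocyte markers and 1.40 for myelin markers.

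Relatives, mostly from the same gene families, were split in direction, and whether they differ from the set was not tested. The list also holds Basp1, Marcks and Marcksl1, which were set beside Gap43 but are not of its gene family. Of 25 tested relatives, 15 had positive and 10 negative differences with a median of 0.34. After scaling without mitochondrial genes 12 were negative and the median was 0.03, or 0.33 relative to all genes. With or without the block, 0 were called. Stmn4, another stathmin, had 24.3, 18.5 and 24.9 FPKM in the controls and 92.2, 53.9 and 255.8 FPKM with fibrils, a log2 difference of 2.23 (SE 0.57, adjusted p = 0.736 by limma). Dpysl4, a relative of Dpysl3, had 51.4, 34.7 and 47.6 FPKM against 130.7, 75.1 and 184.3 FPKM. These were the only 2 tested relatives with every fibril library above every control, and the share of all genes in that direction was not computed. Tubb4a, a beta-tubulin rich in oligodendrocytes, had 605.5, 46.0 and 92.9 FPKM against 1762, 427.5 and 1206 FPKM, higher in each replicate number with overlapping groups.

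Lower values in every fibril library were seen for 2 relatives. Nefm, the medium neurofilament chain, had 4.31, 3.59 and 6.5 FPKM in the controls and 3.22, 3.12 and 2.53 FPKM with fibrils. Elavl2, a neuronal Hu gene, had 2.20, 1.91 and 1.67 FPKM against 0.944, 1.23 and 0.923 FPKM. In both the groups did not overlap, as for 5.30% of all genes. Elavl2 passed the filter through its controls, since fibril replicates 1 and 3 lay below 1 FPKM, so its lower values are partly tied to the filter. Basp1, which works beside GAP-43 at the membrane, was lower in each replicate number (92.0, 235.7 and 232.1 against 43.8, 146.8 and 102.0 FPKM). Relatives with differences near 0 were Elavl1, Snap29 and Dclk2. Elavl1 had a log2 difference of -0.06, Snap29 of 0.01 and Dclk2 of -0.04, with SEs of 0.40, 0.41 and 0.52. The other tested relatives lay between -0.38 (Stmn3) and 0.63 (Tubb2b), with Elavl3 at 0.60, Vim at 0.62, Marcksl1 at 0.57, Snap23 at 0.46, Tubb4b at 0.47, Tubb6 at 0.45, Nes at 0.40, Tubb5 at 0.38, Marcks at 0.34, Snap47 at 0.14, Dpysl2 and Crmp1 at -0.23, Tubb2a at -0.28 and Dclk1 at -0.35. Signs turned for Snap29 (-0.28) and Snap47 (-0.11) when scaled without mitochondrial genes, and for Tubb5 (-0.22) and Marcks (-0.06) under quantile normalization. Where near-identical tubulin or stathmin sequences share fragments, the assignment to 1 gene is uncertain.

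A ratio of related genes inside a library is free of the library's scaling. For 17 pairings of a gene with a relative, chosen after values had been seen, the ratios did not overlap between groups in 5, all lower with fibrils, and overlapped in 12. Genes recur across the pairings and no share over all gene pairs was computed, so this count has no baseline. Snap25 to Snap29 gave 0.880, 0.862 and 0.850 in the controls and 0.434, 0.413 and 0.355 with fibrils. The 3 controls lay close together and well above the 3 fibril libraries. Stmn4 exceeded Stmn2 by 5.74, 3.88 and 6.80 times in the controls and by 47.4, 25.7 and 74.4 times with fibrils. Dcx to Dclk2 gave 0.447, 0.405 and 0.730 against 0.201, 0.271 and 0.211. Tubb3 to Tubb2b and Dcx to Dclk1 were the other pairings without overlap, the latter by a margin of 5.38 to 5.37. Each of these 5 had an exact permutation p of 0.1, and 0.34 after Benjamini-Hochberg adjustment over the 17 pairings.

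**Figure D3:**
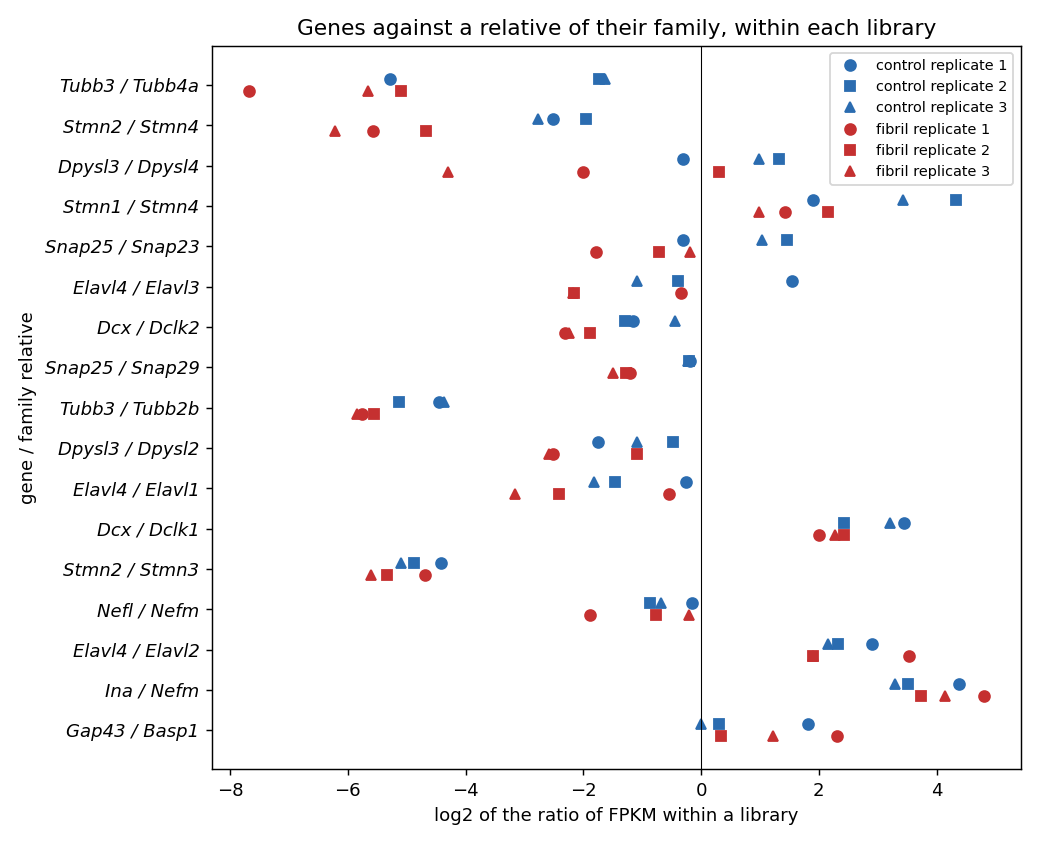
Log2 of the FPKM ratio of a gene to a family relative (for Gap43, to Basp1, which is not of its family) within each library. Control is in blue and fibril in red, with 1 marker shape per replicate number, ordered by the difference between groups. For Snap25 over Snap29 the blue points coincide near -0.18 to -0.23 and the red ones lie from -1.20 to -1.50, while Stmn2 over Stmn4 moves from between -2.77 and -1.96 to between -6.22 and -4.68.

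Transcription factors that commit cells to a neuronal fate were mostly too low to test. Of 17 such genes in the table only 2 could be tested, and neither was called with or without the block. Neurod6, Neurog1, Dlx6, Nhlh1 and Nhlh2 had 0 in every library. Sox11, a factor of immature neurons and progenitors, had 5.51, 19.2 and 22.8 FPKM in the controls and 3.0, 14.2 and 2.69 FPKM with fibrils. It was lower in each replicate number with overlapping groups, with a log2 difference of -1.27 (SE 0.69).

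Other genes of neurite growth and guidance leaned the same way as the set. Of 23 tested, 18 were negative and 5 positive with a median of -0.62, 0 called. Cdk5r1, the activator of the neuronal kinase Cdk5, had 4.02, 15.7 and 18.5 FPKM in the controls and 1.74, 8.16 and 1.5 FPKM with fibrils (log2 difference -1.57, SE 0.68). Mark1, a kinase of microtubule-associated proteins, had 15.7, 11.2 and 12.6 FPKM against 7.27, 8.0 and 5.29 FPKM, without overlap. Dcc, the netrin receptor, had a difference of -1.39 (SE 0.62) and passed the filter through its controls, with fibril replicates 1 and 3 below 1 FPKM. Of the 5 with positive differences, 4 were higher in each replicate number: Map1b, Mllt11 (1.59, SE 0.75), Kif21a (1.19, SE 0.64) and Rtn4 (0.61, SE 0.55). The share of all genes that were higher in each replicate number was not computed, so this count has no baseline. Map1b, a microtubule protein of growing processes, had 33.8, 4.23 and 5.51 FPKM against 97.0, 57.1 and 23.1 FPKM. Fibril replicate 3 lay below control replicate 1, so the groups overlapped, with a log2 difference of 2.29 (SE 0.78).

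Mature neuron and synapse markers were present in part. Of 24 genes, 15 were tested, of which 12 were negative and 3 positive with a median of -0.34 and 0 called. The glutamate transporters Slc17a6 and Slc17a7, the neuronal enolase gene Eno2 and Snhg11 were among those listed at 0 in all libraries, and Gad1 and Gad2, the GABA-making enzymes, reached at most 1.25 and 0.516 FPKM. Rbfox3, which encodes the nuclear antigen NeuN, had 12.4, 4.61 and 7.08 FPKM in the controls and 5.71, 5.10 and 3.06 FPKM with fibrils. Syn2, a synaptic vesicle phosphoprotein, had 1.31, 5.06 and 5.84 FPKM against 0.751, 1.68 and 0.634 FPKM (log2 difference -1.21, SE 0.50). It passed the filter through its controls, with fibril replicates 1 and 3 below 1 FPKM. Syn1 and Cplx2 had differences of -0.65 (SE 0.42) and -0.85 (SE 0.67). Vamp2, the vesicle SNARE that pairs with SNAP-25, had a difference of 0.54 (SE 0.45) and was higher in each replicate number. The summed FPKM of the 24 genes ran from 381.7 to 408.1 in the controls and from 347.4 to 412.6 with fibrils.

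Marker levels of other cell types are given here by group, and their part in the differences above was not tested. Precursor markers, which define the labelled cell type, were detected for the 8 of 9 found in the table (Pdgfra, Cspg4, Olig1, Olig2 and Sox10 among them), with a median difference of -0.63, 6 of 8 negative and 0 called. Their summed FPKM was 1309 to 2222 in the controls and 1023 to 1471 with fibrils. Myelin and oligodendrocyte markers had a median of 1.72 with 10 of 11 positive, and the block called 3 of them higher (Mbp, Mag and Enpp6), while without it none was called. With the block and scaling without mitochondrial genes the limma adjusted p was 0.0251 for Mbp, 0.134 for Mag and 0.144 for Enpp6, so Mbp alone of the 3 stayed under 0.05. The 15 listed markers of this type summed to 1188 to 5327 FPKM in the controls and 5104 to 9579 with fibrils. Bcas1 alone was the largest part of this sum in every library. It had 4033, 710.6 and 724.7 FPKM in the controls and 6463, 2616 and 2040 FPKM with fibrils.

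Astrocyte markers had a median of -1.11 with 6 of 8 negative, a sum of 151.2 to 168.8 FPKM in the controls and 93.6 to 233.5 with fibrils, and Gjb6 at 0 throughout. Of the negative ones, Slc4a4, Slc1a2 and Aqp4 passed the filter through their controls, so this count and median are partly tied to the filter. Gfap went the other way without overlap (0.643, 0.37 and 0.733 against 3.69, 6.2 and 24.8 FPKM) and passed through its fibril libraries. Aldoc, also positive, alone had 180.6 FPKM of the sum in fibril replicate 3. Microglia markers summed to 1.43 to 46.1 FPKM in the controls and 9.49 to 51.1 with fibrils, with 4 of 6 tested positive. Neural stem cell markers had a median of -0.41 (4 of 6 negative). Among them Hes1, a Notch target that holds progenitors back, had 4.54, 6.12 and 4.83 FPKM against 0.712, 1.89 and 3.05 FPKM without overlap. Pax6, Fabp7 and Sox2 had differences of -1.11 (SE 0.53), -0.49 (SE 0.62) and 0.48 (SE 0.46). Pax6 passed the filter through its controls, with fibril replicates 1 and 3 below 1 FPKM. Cell cycle genes, set beside Stmn1 because it is abundant in dividing cells, had a median of -0.14 with 9 of 13 negative (12 of 13 when scaled without mitochondrial genes) and 0 called. Their 4 smallest p-values belonged to Mcm2 (-0.46), Bub1 (-0.44), Cenpf (-0.44) and Birc5 (0.51).

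**Figure D4:**
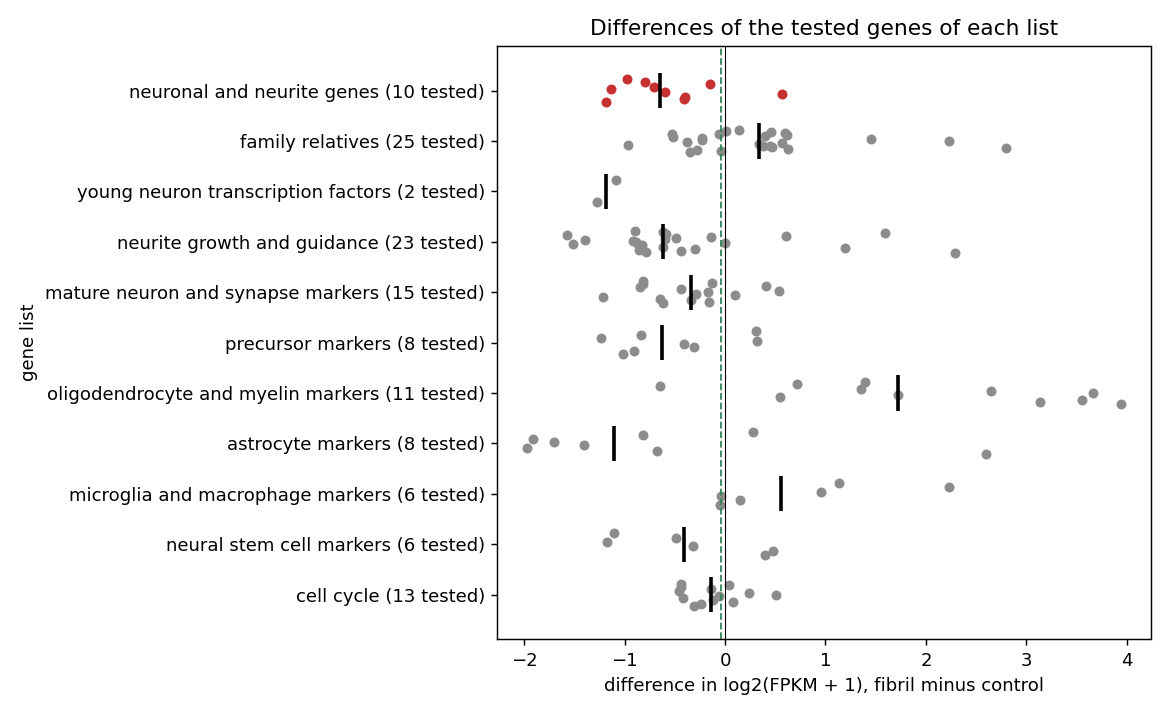
Difference in log2(FPKM + 1), fibril minus control, of every tested gene of each list, with a black bar at the list's median and the dashed line at the median of all genes (-0.04). The 10 neuronal and neurite genes (red) centre on -0.65, close to the neurite list (-0.62) and the precursor markers (-0.63), while family relatives centre on 0.34 and myelin markers on 1.72.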

How the data were processed

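RNA from 6 libraries of cultured rat precursor cells was made into strand-specific libraries with an Agilent SureSelect kit, per the labels' protocols. The deposited table gives FPKM in 1 column per library, per the file headers. Per the submitters' processing notes, Trimmomatic and FastQC were used. For aligner, quantifier and build the entry is "not given in the sources used here".

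Values were analysed as log2(FPKM + 1) for genes that reached 1 FPKM in 3 or more libraries, with limma 3.58.1 in R 4.3.3 (two-sided, intensity trend on, Benjamini-Hochberg adjusted p under 0.05) and checked on simulated data. Fold changes on this scale understate low genes. Exact permutation tests used SciPy 1.17.1. The labels give the same replicate numbers to both groups without stating a pairing. Same-numbered libraries deviated together (correlations across genes of 0.747, 0.364 and 0.216, all over 0.1), so the fit with the number as a block is given too. The 10 genes and all lists were chosen with earlier results of these data known. The genes named are the 10 in every case and, from each list, up to 4 with the smallest p, family relatives that were tested and genes listed at 0 throughout. Others (Gad1, Gad2, Vamp2, Mllt11, Kif21a, Rtn4 and the cell type markers) were named after their values were seen. Some genes that the rule would name are counted in their lists but not reported here.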

Additional observations from a re-analysis of the deposited data

How the results depend on the processing

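Over 18 alternatives no gene of the set was called, and 175 of 179 single-gene differences kept their sign. Many of these differences could not change sign. With all libraries in, the block leaves each difference as it is without it, and the filter does not alter a gene's own difference. The count therefore overstates how far the signs were put to the test. The 4 that changed sign were Stmn1 without control replicate 1 (-0.03, range 0.99 to -0.03 leaving out 1 library) and Ina without control replicate 1 (0.11), without fibril replicate 2 (0.04; range -0.50 to 0.11) and over replicates 1 and 2 with the replicate block (0.02). The cause was not tested.

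The median log2 difference of the set (-0.65) was -0.84 and -0.36 with pseudocounts of 0.1 and 5 FPKM, -0.58 under quantile normalization with or without the block, -0.87 scaled without mitochondrial genes with or without the block, -0.43 over replicates 2 and 3 with or without the block, and -0.74 to -0.49 when 1 library was left out. The pseudocount moves it by construction, since it shrinks the differences of low genes.

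Over all genes, the replicate block called 12 higher and 0 lower, and 1 higher when scaled without mitochondrial genes. Leaving out 1 library without the block called 0 to 1 higher (1 without control replicate 1). The block with quantile normalization called 13 higher and 2 lower, over replicates 1 and 2 only 17 and 5, and over replicates 2 and 3 only 46 and 33; these 3 fits were chosen after seeing the data, and the last 2 leave 1 residual degree of freedom. Without a block, 0 genes were called under the other alternatives, where 292 to 783 had an unadjusted limma p under 0.05. The block changed no call of the set. The lowest values of Nefl, Stmn2 and Tubb3 came from fibril replicate 1, the shallowest library.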
